A study of Homo sapiens with 6 samples.

Results

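The genes described here are 10 that move, store and sense iron in the liver, chosen by symbol: TF, TFRC, TFR2, FTH1, FTL, SLC40A1, SLC11A2, HAMP, HFE and CP. All 10 were found once among the 58676 gene IDs of the deposited table. RNA came from a human cell line labelled HCC, grown in DMEM with serum, in 6 libraries. By the genotype label 3 are control and 3 are knockdown, and the titles of the latter read sponge. The series title names miR-19a, and a microRNA sponge is an RNA full of sites for a microRNA, which it soaks up. The labels do not name the line or the vector, and the title speaks of treated cells, so that label alone sets the groups. The labels do not state whether the libraries of a group were separate cultures. The p-values below measure the spread between the libraries only, and that spread may be technical.

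Iron travels in plasma on transferrin, the product of TF, and enters cells through transferrin receptor 1, the product of TFRC. Inside the cell it is stored in ferritin, a shell built from a heavy chain (FTH1) that oxidises iron and a light chain (FTL) that helps it mineralise. Ferroportin, from SLC40A1, is the exporter of iron, and ceruloplasmin, from CP, is a copper oxidase that helps load exported iron onto transferrin. Hepcidin, the liver hormone made from HAMP, binds ferroportin and leads to its loss, and HFE and transferrin receptor 2 (TFR2) belong to the liver's sensing of iron upstream of hepcidin. SLC11A2 encodes DMT1, which carries ferrous iron across the endosome and the gut membrane.

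Several of these mRNAs carry an iron-responsive element, a short hairpin with a CAGUGN loop that iron regulatory proteins bind when iron is scarce. In a 5′ UTR the bound protein blocks translation, and in the 3′ UTR of TFRC it protects the mRNA from decay. These hairpins are shown because a hairpin in a 5′ UTR acts on translation, which RNA levels do not measure, and those of TFRC act on mRNA level. The search took a C, 5 bases, the loop CAGTGN with no G at its end, and 5 bases that pair with the first 5 (G-T pairs allowed), on the mRNA strand of the longest annotated UTR in GENCODE 29 (GRCh38). A match was found in the 5′ UTR of FTH1, FTL and SLC40A1, and 4 matches in the 3′ UTR of TFRC. SLC11A2, known for such an element in the 3′ UTR of some of its transcripts, had no match to this strict pattern in the longest UTR. TF had 1 match, not shown, in its annotated 3′ UTR of 18020 bases. Among coding genes, 19 of 19011 had such a match in the 5′ UTR (0.0999%) and 97 of 19115 in the 3′ UTR (0.507%). Those of FTH1, FTL, SLC40A1 and TFRC are printed 5′ to 3′ over 30 bases with the loop in capitals.
FTH1, chr11:61967573-61967602, minus strand: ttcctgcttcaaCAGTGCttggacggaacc
FTL, chr19:48965335-48965364, plus strand: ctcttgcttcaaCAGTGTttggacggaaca
SLC40A1, chr2:189580660-189580689, minus strand: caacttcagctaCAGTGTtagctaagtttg
TFRC, chr3:196050978-196051007, minus strand: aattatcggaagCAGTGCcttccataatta
TFRC, chr3:196050574-196050603, minus strand: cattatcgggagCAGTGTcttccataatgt
TFRC, chr3:196050509-196050538, minus strand: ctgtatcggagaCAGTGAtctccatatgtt
TFRC, chr3:196050462-196050491, minus strand: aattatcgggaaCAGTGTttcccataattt

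The microRNA of the title reads its targets through bases 2 to 8, in capitals here, which miR-19a and miR-19b share (mature sequences from RefSeq, GRCh38.p14).
hsa-miR-19a-3p: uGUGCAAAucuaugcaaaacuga
hsa-miR-19b-3p: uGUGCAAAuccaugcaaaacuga
The 7-base match to this seed, TTTGCAC, was searched on the mRNA strand of the longest annotated 3′ UTR, where 2602 of 19115 coding genes hold it (13.6%). Of the 10 members TF alone held it, with 2 matches, in capitals below. They lie in that long annotated 3′ UTR, and whether these cells make such a transcript was not tested.
TF, chr3:133787222-133787251, plus strand: aattagcacatTTTGCACactttgtattga
TF, chr3:133789578-133789607, plus strand: agatgtgtttaTTTGCACatttgttatatg
The related match TTGCACA, which shares 6 bases with TTTGCAC and is held by 12.9% of genes, occurred 3 times in TF (2 of them overlapping the sites above), 2 times in SLC11A2 and 1 time in HFE. No match of either kind was found in the longest 3′ UTR of TFRC, TFR2, FTH1, FTL, SLC40A1, HAMP or CP.

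Knockdown replicate 2 was left out of every result, because its column is out of step with the gene IDs: its rank correlation across genes with each of the other libraries was 0.017 to 0.019, against 0.82 to 0.89 among those 5. The values are RPKM, reads per kilobase of the gene's annotated exons and per library size in assigned reads. Reads recovered from the RPKM steps came to 1948940 in control replicate 2, the shallowest, and to 9181567 to 19605312 in the other 4. The HCC label was checked on hepatocyte markers, of which 10 of 10 were at 0.5 RPKM or more in every library, ALB among them at 652 to 951 RPKM (control) and 817 to 870 RPKM (knockdown). Of 9 macrophage markers 5, CD163, MARCO and CD5L among them, were listed at 0 in all 5 libraries. LYZ, which encodes lysozyme and is on the same list, was at 8.59 to 11.6 RPKM and CSF1R at 0.199 to 0.271 RPKM. The list summed to 8.92 to 12.1 RPKM (control) and 9.61 to 9.70 RPKM (knockdown). The sums of 8 erythroid markers were 1.47 to 3.19 RPKM (control) and 3.87 to 5.45 RPKM (knockdown), most of it HBA1 and HBA2, with HBB at 0 throughout. HBA1 lay above all controls in knockdown (0.672 to 1.23 RPKM against 1.55 to 1.89 RPKM). HBA2 overlapped (0.802 to 1.86 RPKM against 1.82 to 3.02 RPKM). ALAS2, near the floor, was at 0 in every control against 0.0504 to 0.0617 RPKM in knockdown. For stellate cell and fibroblast markers the sums were 63.3 to 82.6 RPKM (control) and 68.04 to 72.1 RPKM (knockdown), most of it LUM at 53.5 to 68.3 RPKM. COL1A1 (0.732 to 1.99 RPKM against 2.16 to 2.33 RPKM) and COL1A2 (7.54 to 11.7 RPKM against 12.02 to 14.7 RPKM), on the same list, lay above all controls. So did DCN, at no more than 0.0102 RPKM in any library. COL3A1, also listed, lay below them (0.144 to 0.157 RPKM against 0.111 to 0.135 RPKM). Endothelial markers summed to 0.534 to 0.760 RPKM (control) and 0.448 to 0.461 RPKM (knockdown). PECAM1, most of that sum, lay below all controls (0.513 to 0.661 RPKM against 0.322 to 0.360 RPKM). LYVE1 and CDH5 went the other way, near the floor. Both were at 0 in every control, against 0.0306 to 0.0374 RPKM and 0.0216 to 0.0354 RPKM in knockdown. The part of these marker differences in the results was not tested. In bulk RNA, fewer cells of a type and less RNA per cell cannot be told apart.

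By level, the storage genes came first, then the plasma carrier, then the receptor and the exporter, and hepcidin last. FTL had a mean of 5434 ± 1158 RPKM (SD over 5 libraries) and FTH1 of 734 ± 163 RPKM. TF had a mean of 69.3 ± 12.0 RPKM, TFRC of 42.2 ± 8.03 RPKM and SLC40A1 of 19.4 ± 4.39 RPKM. The ranges of these 5 genes did not overlap those of their neighbours in the order. TFR2 at 5.46 ± 0.867 RPKM, SLC11A2 at 4.20 ± 0.566 RPKM and HFE at 3.74 ± 0.480 RPKM had overlapping ranges. CP at 2.04 ± 0.540 RPKM and HAMP at 0.496 ± 0.281 RPKM lay below them. In RPKM each was clear of the gene above it, which did not hold with the other gene length given below. FTL held rank 5 to 9 among all gene IDs in every library and FTH1 rank 30 to 76.

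RPKM divides by the summed length of all annotated exons, and for some members this is far longer than 1 mRNA. TF was divided by 26199 bases, SLC11A2 by 10145 and HAMP by 3010, against 878 for FTL. TF had 15502, 2825 and 32427 reads in control and 20059 and 32426 in knockdown, against 16071, 1907 and 35064 and 12758 and 23683 for FTH1. By reads TF was thus above FTH1 in 3 of 5 libraries, although FTH1 was higher per length in all 5. An alternative chosen after seeing the data divided instead by the longest principal coding transcript (20602 bases for TF, 4164 for SLC11A2, 652 for HAMP). It changed the order of means only by putting SLC11A2 above TFR2, but some ranges that were apart in RPKM then overlapped. TF at 70.4 to 104.7 overlapped TFRC at 48.3 to 81.0. CP at 2.45 to 4.62 overlapped both HFE at 3.40 to 4.72 and HAMP at 0.787 to 3.79. The principal length of TF includes the long annotated 3′ UTR, so its place below FTH1 depends on an annotated transcript not tested in these cells.

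**Figure D1:**
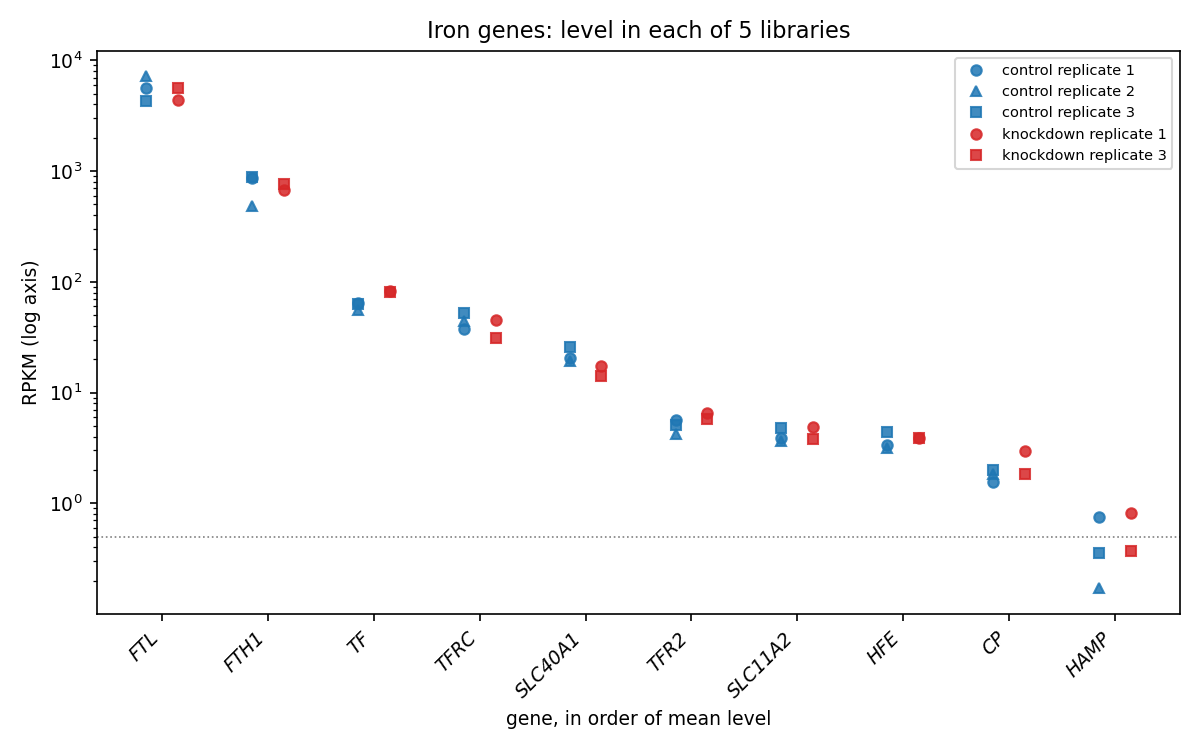
Level of the 10 iron genes in RPKM (log axis) in each library, genes in order of mean level, with controls in blue and knockdown in red. The dotted line marks 0.5 RPKM, the filter for testing. FTL lies at 4340 RPKM or more in all 5 libraries, and HAMP falls on both sides of the filter.

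The comparison asked whether the iron genes differ between the libraries labelled knockdown and control. Whether the sponge took up miR-19 in these cells was not tested. No member passed. Limma on log2(RPKM + 0.5) tested the 9 members that reached 0.5 RPKM in at least 3 libraries, all but HAMP, and called 0 of 15408 genes (0%) at an adjusted p under 0.05. At an unadjusted p under 0.05 it gave 585 genes as higher (3.8%) and 392 as lower (2.54%), 6.34% in all, with 1 of the 9 members, TF, among them. Limma voom on the recovered reads also called 0. For 2 of the 9 members, TF and TFR2, both knockdown values exceeded all 3 controls, against 14.3% of all genes tested, and for 1, SLC40A1, both were below, against 13.6%. Of the 9, 6 had a log2 difference above 0 against 50% of all genes, and their median was 0.071 against -0.00020. Differences are knockdown minus control on the log2(RPKM + 0.5) scale, which understates those of low genes.

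TF (ENSG00000091513, chromosome 3 from 133745956 to 133796640, plus strand) was the member with the smallest unadjusted p. Control replicates 1, 2 and 3 had 64.4, 55.3 and 63.1 RPKM, and knockdown replicates 1 and 3 had 82.4 and 81.4 RPKM. Values of other genes are given in this order. Both knockdown libraries lay above every control, and the 2 of them were closer to each other than the controls were. The means were 61.0 ± 4.93 RPKM (SD, n = 3) and 81.9 ± 0.653 RPKM (SD, n = 2). They differed by a log2 value of 0.43 (SE 0.15, 95% interval 0.053 to 0.80), and this did not pass (limma unadjusted p = 0.0318, adjusted p = 0.71). With the dependence of each library on exon length and GC content taken out, an alternative chosen after seeing the data, the difference was 0.69 (limma adjusted p = 0.58).

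The summed level of other hepatocyte products overlapped between the groups. The sums of the 10 hepatocyte markers were 2410 to 2875 RPKM (control) and 2576 to 2964 RPKM (knockdown). SERPINA1, which encodes alpha-1-antitrypsin, lay above all controls (56.2 to 73.5 RPKM against 93.7 to 97.1 RPKM). APOB, the structural protein of very low density lipoprotein, lay below them (85.6 to 134.1 RPKM against 45.7 to 83.5 RPKM). Exons of TF share 112 bases with SRPRB and 191 bases with the pseudogene TFP1 on the same strand. SRPRB had 92 to 1505 reads and TFP1 had 0 to 11.

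SLC40A1 (ENSG00000138449, chromosome 2 from 189560579 to 189583758, minus strand), the ferroportin gene, was the single member below the controls in both knockdown libraries. Its levels were 20.4, 19.2 and 26.0 RPKM in control and 17.2 and 14.1 RPKM in knockdown. The gap between the groups, from 19.2 to 17.2 RPKM, was smaller than the range within either. Its means were 21.9 ± 3.63 RPKM (SD, n = 3) and 15.7 ± 2.20 RPKM (SD, n = 2). They differed by a log2 value of -0.46 (SE 0.20, 95% interval -0.95 to 0.028), and this did not pass (limma unadjusted p = 0.0603, adjusted p = 0.71).

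Neither transferrin receptor passed, and the difference between them was not tested. TFRC (ENSG00000072274, chromosome 3 from 196027183 to 196082189) was at 37.8, 44.2 and 52.5 RPKM in control and 45.2 and 31.3 RPKM in knockdown. Its groups overlapped: knockdown replicate 1 lay among the controls and knockdown replicate 3 below them. The log2 difference was -0.24 (SE 0.23, 95% interval -0.82 to 0.35, limma adjusted p = 0.80), and it was 0.025 without knockdown replicate 3. TFR2 (ENSG00000106327, chromosome 7 from 100620416 to 100642779) was at 5.61, 4.25 and 5.07 RPKM in control and 6.58 and 5.79 RPKM in knockdown. Both knockdown libraries lay above the controls, knockdown replicate 3 only just above control replicate 1, and the log2 difference was 0.29 (SE 0.18, 95% interval -0.17 to 0.76, limma adjusted p = 0.73). Control replicate 2, the lowest for TFR2, rests on 42 reads.

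The ferritin genes spread more within the controls than between the groups. FTL (ENSG00000087086, chromosome 19 from 48965301 to 48966878) was at 5638, 7178 and 4340 RPKM in control and 4406 and 5608 RPKM in knockdown, and both knockdown values lay inside the control range. Its log2 difference was -0.17 (SE 0.39, 95% interval -1.15 to 0.81, limma adjusted p = 0.92). FTH1 (ENSG00000167996, chromosome 11 from 61959718 to 61967660) was at 862, 482 and 881 RPKM in control and 676 and 768 RPKM in knockdown. Control replicate 2 was the lowest of the 5 libraries for FTH1 and the highest for FTL. The log2 difference of FTH1 was 0.0099 (SE 0.34, 95% interval -0.83 to 0.85, limma adjusted p = 0.996), and it was -0.27 without control replicate 2. The interval of FTH1 reaches from 1.78-fold lower to 1.81-fold higher.

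Ferritin has many processed pseudogenes, copies of the mRNA in the genome that can take reads from the parent gene, and the share of reads they held was not the same in every library. The 25 annotated FTH1 pseudogenes held 716, 945 and 333 reads in control replicates 1, 2 and 3 and 699 and 1229 in knockdown replicates 1 and 3. Set against the reads of FTH1 itself (16071, 1907, 35064, 12758 and 23683), these were 4.46, 49.6, 0.950, 5.48 and 5.19 per 100. Control replicate 2 thus had 9.04 times the value of the next library, and control replicate 3 had the lowest. The 16 FTL pseudogenes were also highest in control replicate 2 and lowest in control replicate 3, at 0.356, 2.74 and 0.0964 reads per 100 in control and 0.275 and 0.295 in knockdown. With the pseudogene reads added back to the gene, FTH1 stood at 901, 721 and 889 RPKM in control and 713 and 807 RPKM in knockdown, and its log2 difference was -0.13. FTL was at 7375 RPKM in control replicate 2 with its pseudogene reads, and its log2 difference was -0.18. FTH1 is therefore uncertain wherever control replicate 2 enters. FTL moved little when pseudogene reads were added, but its log2 difference went from -0.17 to 0.0071 when control replicate 2 was left out. How the counting divided such reads is not given in the sources used here, and its part in the low FTH1 value of control replicate 2 was not tested. FTH1 also shares 1267 exon bases with BEST1 on the opposite strand, which had 3 to 45 reads.

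The ratio of FTL to FTH1, in RPKM, sets the light chain against the heavy chain within a library. It was 6.54, 14.9 and 4.93 in control and 6.52 and 7.31 in knockdown. Control replicate 2 stood apart and both knockdown values lay within the range of the controls. The log2 difference was -0.18 (two-sided exact permutation p = 0.90 over 10 splits, which cannot give less than 0.1). With pseudogene reads included the ratios were 6.28, 10.2 and 4.88 in control and 6.20 and 6.97 in knockdown, with a log2 difference of -0.049. Without control replicate 2 the log2 difference of the gene ratios was 0.28.

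**Figure D2:**
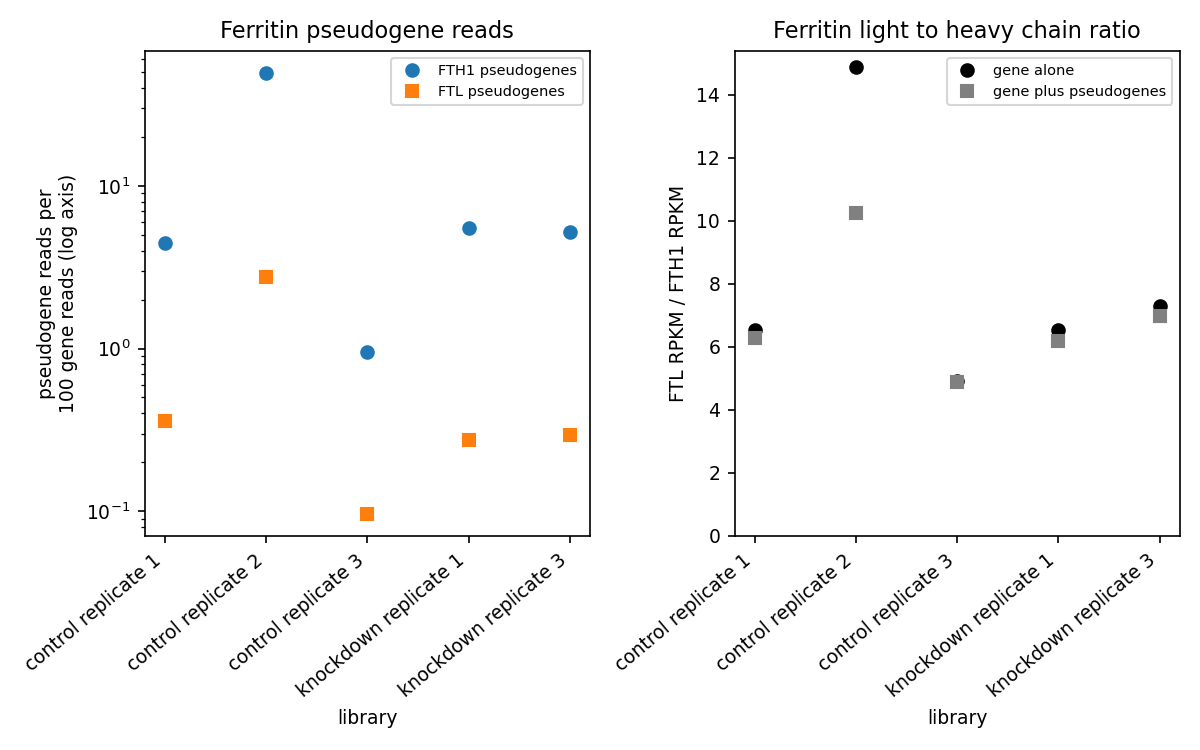
Left, reads on FTH1 and FTL pseudogenes per 100 reads on the gene (log axis) by library; right, the ratio of FTL RPKM to FTH1 RPKM for the gene alone and with pseudogene reads added. Control replicate 2 is the highest point in both panels, at 49.6 FTH1 pseudogene reads per 100 and a ratio of 14.9, or 10.2 with pseudogene reads.

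Hepcidin RNA was near the lower limit of what these libraries can measure. HAMP (ENSG00000105697, chromosome 19 from 35280716 to 35285143) had 21, 1 and 21 reads in control and 23 and 17 reads in knockdown, which are 0.760, 0.170 and 0.356 RPKM and 0.822 and 0.372 RPKM. Replicate 1 was the higher library in each group and the groups overlapped. HAMP reached 0.5 RPKM in 2 libraries and so fell below the filter. Divided by its principal transcript (652 bases) instead of its summed exons (3010 bases), it stood at 0.787 to 3.79. Its place under the filter thus depends on the length used. With no filter on low values its log2 difference was 0.26 (SE 0.40), which did not pass (limma unadjusted p = 0.55, adjusted p = 0.86).

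HFE, SLC11A2 and CP had overlapping groups. HFE (ENSG00000010704, chromosome 6 from 26087281 to 26098343) was at 3.40, 3.16 and 4.40 RPKM in control and 3.90 and 3.86 RPKM in knockdown, a log2 difference of 0.089 (SE 0.20, limma adjusted p = 0.91). SLC11A2 (ENSG00000110911, chromosome 12 from 50979401 to 51028566) was at 3.91, 3.64 and 4.76 RPKM in control and 4.86 and 3.82 RPKM in knockdown, a log2 difference of 0.071 (SE 0.20, limma adjusted p = 0.93). The 95% intervals were -0.41 to 0.59 for HFE and -0.43 to 0.58 for SLC11A2. CP (ENSG00000047457, chromosome 3 from 149162410 to 149222055) was at 1.57, 1.83 and 2.00 RPKM in control and 2.96 and 1.83 RPKM in knockdown. Only knockdown replicate 1 lay above the controls, and the log2 difference of 0.31 (SE 0.25, limma adjusted p = 0.77) was 0.024 without that library. CP shares 1418 exon bases with HPS3 on the opposite strand. HPS3 had more reads than CP in every library, 293 against 105 in control replicate 1, and since the use of strand in counting is not stated, reads in those bases cannot be assigned to either gene.

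Taking out the dependence on exon length and GC content moved the other members in both directions, and none passed. The differences moved towards 0 for TFRC, from -0.24 to -0.033, for TFR2, from 0.29 to 0.15, and for SLC40A1, from -0.46 to -0.40. They moved away from 0 for FTL, from -0.17 to -0.28, for SLC11A2, from 0.071 to 0.31, for HFE, from 0.089 to 0.22, and for CP, from 0.31 to 0.48. FTH1 changed sign, from 0.0099 to -0.045.

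**Figure D3:**
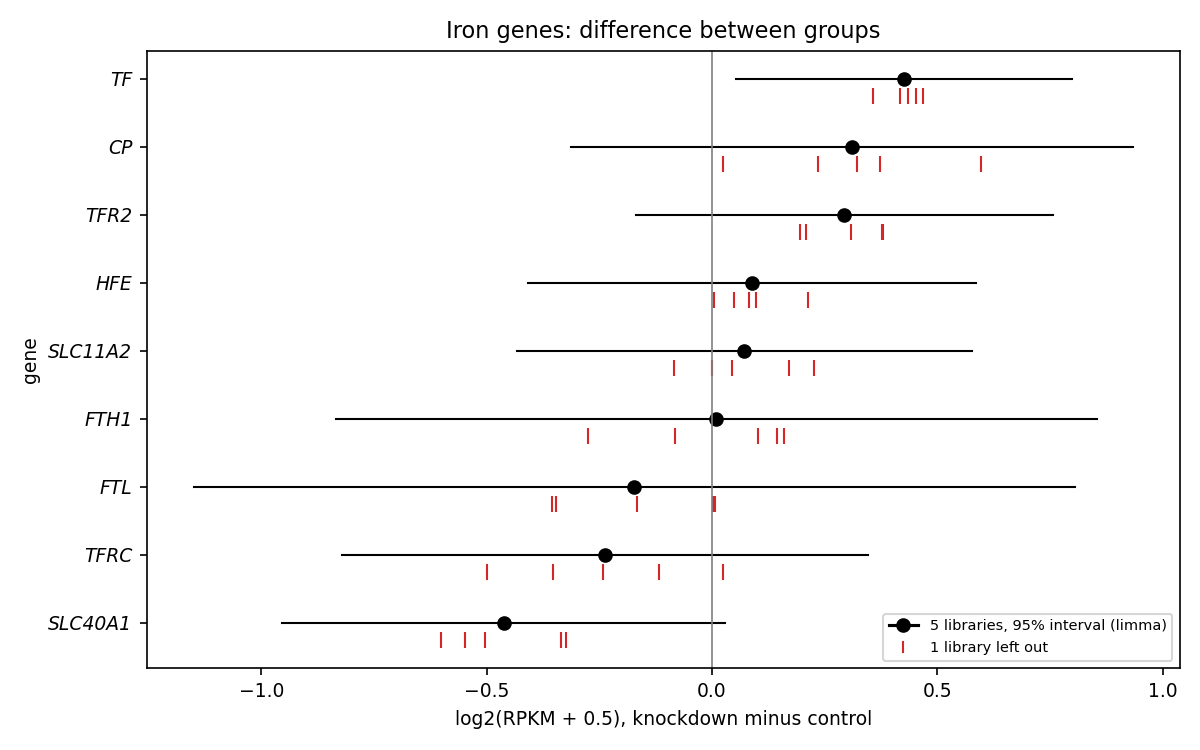
Log2 difference, knockdown minus control, of the 9 tested iron genes, with limma's 95% interval (black) and the values when each library is left out (red ticks). The interval of TF alone lies above 0, from 0.053 to 0.80, and the ticks of FTH1, FTL, TFRC and SLC11A2 fall on both sides of 0.

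The rest of iron handling was described by a list of 79 other genes in 6 groups, of which 68 were tested. None passed limma over all genes. At an unadjusted p under 0.05, 2 of the 68 were higher, PCBP2 and TMPRSS6, and 1 was lower, SMAD6, against 3.8% and 2.54% of all genes. In each direction the list's share was below that of all genes. In all, 36 were above 0 and 32 below, and the median was 0.030. Both knockdown values exceeded every control for 10.3% of the list and were under every control for 13.2%, against 14.3% and 13.6% of all genes. As a whole the list lay close to the background.

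The iron regulatory proteins and ferritin turnover group had 5 of 7 tested genes below 0, with a median of -0.23, and 3 of them below all controls in both knockdown libraries. Over all genes tested, 50% were below 0 and 13.6% below all controls, and none of the 7 genes passed. IREB2, which encodes iron regulatory protein 2, was at 6.39, 6.17 and 9.15 RPKM in control and 5.58 and 4.65 RPKM in knockdown, a log2 difference of -0.45 (SE 0.23, limma adjusted p = 0.71). ACO1, which encodes iron regulatory protein 1, was at 5.07, 5.30 and 5.78 RPKM in control and 4.56 and 4.46 RPKM in knockdown, a log2 difference of -0.23 (SE 0.16, limma adjusted p = 0.73). Both genes lay below every control in both knockdown libraries. With length and GC trends removed the differences were -0.23 for IREB2 and -0.060 for ACO1, and without control replicate 3 that of IREB2 was -0.28. HERC2, a large ubiquitin ligase, was the third gene below all controls, at a log2 difference of -0.58 (SE 0.26). NCOA4, the receptor that takes ferritin to the lysosome, differed by -0.28 (SE 0.21) and FBXL5, the iron-sensing subunit of the ligase that degrades iron regulatory proteins, by -0.031 (SE 0.27), and both had overlapping groups. PCBP2, an RNA-binding protein that also acts as an iron chaperone, was the group's gene above all controls. Its means were 21.2 ± 1.68 RPKM in control (SD, n = 3) and 31.0 ± 6.29 RPKM in knockdown (SD, n = 2).

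Genes that control hepcidin were divided, with 9 of 19 above 0 and a median of -0.051. In both knockdown libraries 2 of the 19 lay above all controls and 2 below them. These shares, 10.5% each, were under the 14.3% and 13.6% of all genes. SMAD6, an inhibitor of BMP signalling, had the smallest unadjusted p of the list, at 5.81, 6.83 and 6.64 RPKM in control and 4.48 and 3.83 RPKM in knockdown. Its groups did not overlap, and the log2 difference was -0.57 (SE 0.17), which did not pass (limma unadjusted p = 0.0172, adjusted p = 0.71). TMPRSS6, the protease that cleaves hemojuvelin and so lowers hepcidin, was at 5.58, 4.73 and 5.66 RPKM in control and 6.91 and 8.02 RPKM in knockdown, a log2 difference of 0.45 (SE 0.17, limma adjusted p = 0.71), and of 0.25 with length and GC trends removed. GDF15, a stress-induced cytokine, was also above all controls, at 33.6 ± 8.68 RPKM (SD, n = 3) and 51.0 ± 6.12 RPKM (SD, n = 2). BMP6, the ligand that signals iron load to hepatocytes, ranged over 0.738 to 1.78 RPKM (control) and 1.56 to 2.09 RPKM (knockdown). HJV, the hemojuvelin co-receptor, ranged over 1.13 to 2.97 RPKM and 1.20 to 1.55 RPKM. The groups of BMP6 and HJV overlapped. Their log2 differences were 0.42 for BMP6 and -0.32 for HJV, and 0.18 and -0.028 without control replicate 2. In that library BMP6 rests on 4 reads and HJV on 14.

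The remaining groups lay on both sides of 0. Of 24 mitochondrial iron, heme synthesis and iron-sulfur cluster genes, 16 were above 0, with a median of 0.054. In both knockdown libraries 2 of the 24 lay below all controls (8.33% against 13.6% of all genes) and 1 above them (4.17% against 14.3%). Those below were ABCB10, a transporter of the inner mitochondrial membrane, at -0.55 (SE 0.24) and FECH, which inserts iron into protoporphyrin to make heme, at -0.37 (SE 0.16). ISCU, the scaffold on which iron-sulfur clusters are built, was the gene above, at 8.69, 5.09 and 9.45 RPKM in control and 9.94 and 12.4 RPKM in knockdown, a log2 difference of 0.54 (SE 0.30). Of 11 heme uptake, export and breakdown genes, 7 were above 0, and HMOX1, the heme oxygenase, was at 14.2 ± 2.56 RPKM (SD, n = 3) and 15.8 ± 0.0366 RPKM (SD, n = 2). Of 6 uptake and reduction genes, 4 were below 0. SLC39A14, a zinc and iron transporter of hepatocytes, ranged over 44.4 to 57.5 RPKM (control) and 35.0 to 45.5 RPKM (knockdown), and STEAP3, an endosomal ferrireductase, over 6.18 to 7.01 RPKM and 5.82 to 5.99 RPKM. In the export and oxidation group APP alone was tested. HEPH, the membrane-bound relative of ceruloplasmin, was at most 0.144 RPKM in any library.

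**Figure D4:**
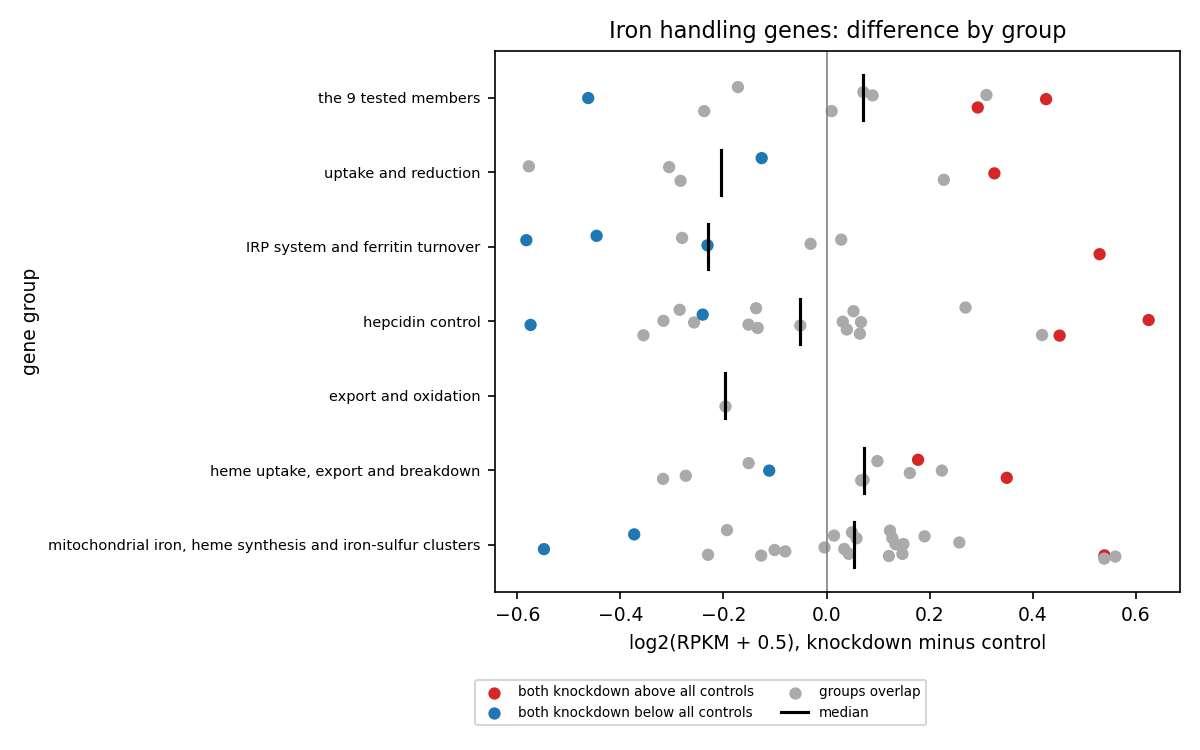
Log2 difference, knockdown minus control, of the 9 tested members and the 68 tested genes of the iron handling list by group, with each group's median as a black bar. Points are red where both knockdown libraries lie above all controls, blue where both lie below and grey where the groups overlap; most are grey, and the medians lie between -0.23 and 0.072.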

How the data were processed

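Per the labels' description field, the authors deposited RPKM, 1 value per gene and library. The tool HISAT2 and the build GRCh38 are named per the submitters' processing notes. The counter, its annotation and its strand setting are not stated there. The 58676 gene IDs all matched GENCODE 29 (GRCh38), which gave symbols, exons and UTR sequences. In 5 libraries, RPKM times exon length gave whole reads for 100% of values above 0 (within 0.002 read), which served as read numbers.

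The 10 members and all lists were chosen with earlier results of these data known. Limma 3.58.1 in R 4.3.3 (lmFit, eBayes with trend, two-sided) was fitted on log2(RPKM + 0.5) over the 15408 genes that reached 0.5 RPKM in 3 or more of 5 libraries, with Benjamini-Hochberg adjustment over all of them. The code was tested on simulated data. Named besides the members were 10 iron genes regardless of their values (IREB2, ACO1, FBXL5, NCOA4, HMOX1, HJV, TMPRSS6, BMP6, SLC39A14, STEAP3) and the 8 of smallest unadjusted p with groups apart; overlapping genes, pseudogenes, APP, HEPH, ISCU and markers were named after their values were seen. Alternatives were pseudocounts (0.1, 1), filters, scalings, no trend, limma voom on the reads, a replicate block, leaving out each library and, chosen after seeing the data, removal of length and GC trends, pseudogene reads added and another gene length.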

Additional observations from a re-analysis of the deposited data

How the results depend on the processing

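Of 146 recomputed differences of the 9 tested members, 133 kept their direction and their side of the threshold, and 13 changed sign without any passing. TF, TFR2, SLC40A1, HFE and CP kept their sign in all 16 alternatives. TF ranged from 0.36 to 0.69, TFR2 from 0.15 to 0.38 and SLC40A1 from -0.60 to -0.32. HFE, from 0.0050 to 0.22, and CP, from 0.024 to 0.60, came close to 0. FTH1 was -0.17 with quantile normalization, -0.045 with length and GC trends removed, -0.13 with pseudogene reads added, and -0.27 to 0.16 when libraries were left out. FTL was -0.36 to 0.0071, TFRC -0.50 to 0.025 and SLC11A2 -0.084 to 0.23 when libraries were left out. FBXL5 was 0.017 with quantile normalization, 0.041 with trends removed, and -0.27 to 0.14 when libraries were left out. The log2 ratio of FTL to FTH1 was -0.52 to 0.28 when libraries were left out. The list median was -0.064 without control replicate 2 and -0.015 with trends removed. The cause was not tested.

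With a replicate block, limma called 33 genes higher and 7 lower, none of them a member, at 1 residual degree of freedom. The labels do not say that equal numbers mark a shared culture, and replicates 1 and 3 alone occur in both groups. There FTH1 was -0.27, FTL 0.0071 and SLC11A2 -0.00091, the same as without control replicate 2, which the block removes from the contrast. Every other alternative called 0 genes. Depth limits HAMP, whose difference was 0.26 (limma adjusted p = 0.86 with no filter) and ranged from -0.042 to 0.56 when libraries were left out, and 1948940 reads in control replicate 2 limit every low gene.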
